A study of Mus musculus with 9 samples.

Results

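The 10 genes described here are the insulin-like growth factor (IGF) ligands Igf1 and Igf2, the receptors Igf1r, Igf2r and Insr, and the IGF binding proteins Igfbp2, Igfbp3, Igfbp4, Igfbp5 and Igfbp7. They were taken by symbol from a table of 49315 gene IDs, and all 10 were found, each under 1 ID. Their transcripts were measured by RNA-seq in 9 libraries, 3 of astrocytes, 3 of mKate2- SB28 cells and 3 of mKate2+ SB28 cells. SB28 is a single mouse glioblastoma line on the C57BL6 background, and the cells expressed GFP. The astrocytes were primary cells from newborn C57BL6 mice carrying the mito::mKate2 transgene, in which a CAG promoter drives a red fluorescent protein targeted to mitochondria. Both cell types were grown together for 2 days at 1:1 and then sorted, so that the astrocytes had also been exposed to tumor cells, and mKate2+ SB28 cells are those that held astrocyte mitochondria while mKate2- SB28 cells are their neighbors that did not. No library came from either cell type cultured alone. The shared medium held serum, EGF, FGF and N2, a supplement that contains insulin. Libraries held between 24454561 and 39287841 counts.

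IGF1 and IGF2 are secreted growth factors that signal through the tyrosine kinase IGF1R and, together with insulin, through the insulin receptor encoded by Insr. IGF2R, also the cation-independent mannose 6-phosphate receptor, takes up IGF2 for degradation and sorts lysosomal enzymes. The binding proteins hold IGFs in the extracellular space and can restrain or prolong their action, and IGFBP7 is a related protein with low affinity for IGFs. In the brain, astrocytes and other glia are known sources of IGF binding proteins, and IGF1 is made by several cell types, microglia among them.

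The sequences upstream of 4 binding protein genes are shown because the differences between astrocytes and SB28 cells centered on the binding proteins. Each line gives 120 bases of RefSeq sequence (GRCm38.p6) before the transcription start, 5' to 3' on the gene's strand, ending before the most upstream start annotated nearby in RefSeq or GENCODE. Capitals mark GGGCGG, the core of a GC box, or the hexamer TATAAA, found in some core promoters. Igfbp2 and Igfbp5 are neighbors on chromosome 1 that point toward each other, Igfbp3 lies on chromosome 11, and Igfbp4 lies elsewhere on that chromosome.
Igfbp2, chr1:72824360-72824479, plus strand: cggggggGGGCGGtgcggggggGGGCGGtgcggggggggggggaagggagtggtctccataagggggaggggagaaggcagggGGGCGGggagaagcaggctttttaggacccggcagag
Igfbp5, chr1:72874885-72875004, minus strand: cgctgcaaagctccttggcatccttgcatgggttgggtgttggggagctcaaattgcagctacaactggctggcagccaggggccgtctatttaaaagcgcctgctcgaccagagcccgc
Igfbp3, chr11:7213924-7214043, minus strand: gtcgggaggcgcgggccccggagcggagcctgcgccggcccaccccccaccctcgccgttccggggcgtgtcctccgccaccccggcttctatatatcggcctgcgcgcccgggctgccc
Igfbp4, chr11:99041124-99041243, plus strand: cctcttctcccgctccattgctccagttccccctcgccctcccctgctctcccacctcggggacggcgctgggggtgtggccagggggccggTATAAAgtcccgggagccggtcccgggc
Searching the 250 bases before each start on both strands, the first of 2 Igfbp2 starts held 3 copies of GGGCGG and the Igfbp4 start held 1 TATAAA, 28 bases upstream. The Igfbp3 and Igfbp5 windows held no exact copy of either motif, and variants of the motifs were not searched. Of 32851 mouse promoter windows of that length, 32.7% held GGGCGG and 12.4% held TATAAA, at any position and on either strand. The presence of either motif therefore does not set these genes apart. Shares for 3 copies of GGGCGG or for TATAAA at that position were not counted.

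Against astrocytes, SB28 cells had far less of 4 of the 5 binding protein transcripts and more of the other, Igfbp4, while the receptors changed little. The same pattern was seen in mKate2- and mKate2+ cells. A gene was called at an adjusted p under 0.05 with a log2 fold change beyond 1 in either direction (edgeR's quasi-likelihood test, Benjamini-Hochberg adjustment over all genes tested). In mKate2- cells 9 of the 10 genes passed the filter on low counts, of which 1 was called higher and 5 lower, against 11.5% and 22.4% of the 13356 genes tested. In mKate2+ cells the counts were also 1 and 5, against 12.2% and 22.8% of 13342 genes. Levels are given as CPM, the counts of a gene scaled to a common library total. The median log2 fold change of the 9 genes was -3.15 in mKate2- cells, where that of all genes tested was -0.04, and in mKate2+ cells the medians were -3.13 and -0.02. Igf1 is among the 5 and the 9 although it passed the filter through astrocyte libraries alone, so its place there was set by the group in which it was high. Both comparisons used the same 3 astrocyte libraries, so one does not repeat the other. In bulk samples, fewer cells expressing a gene and less RNA per cell cannot be told apart.

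**Figure D1:**
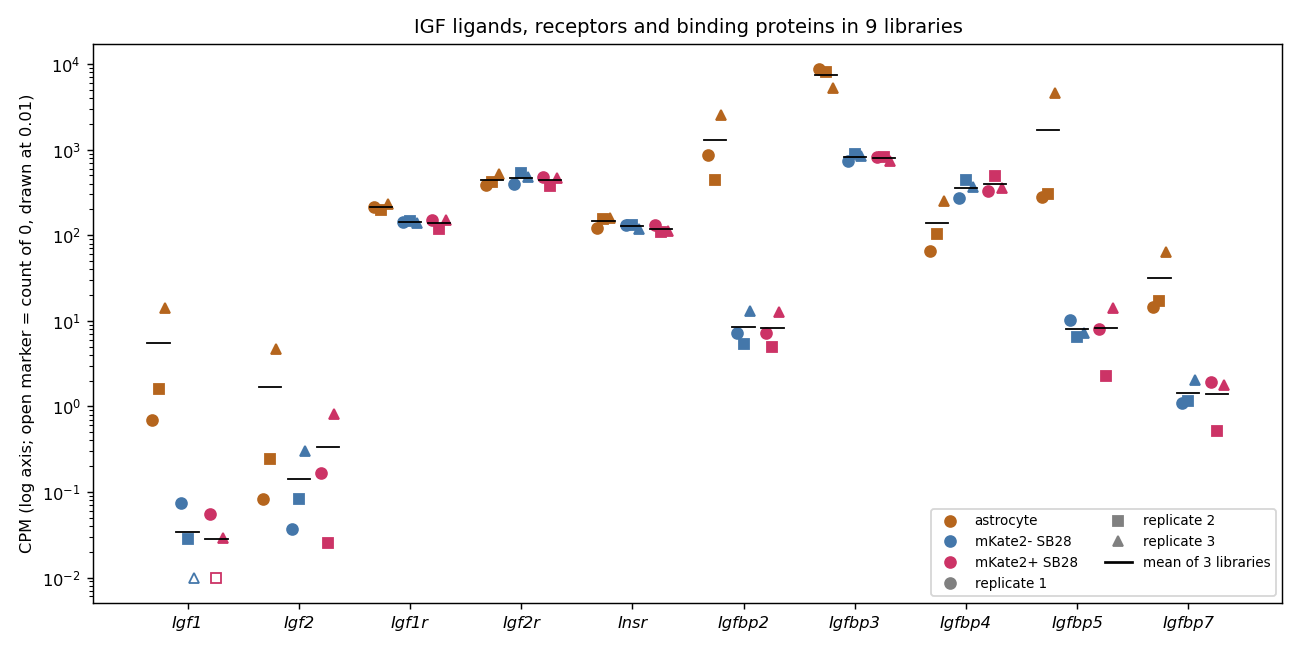
Levels as CPM (log axis) of the 10 genes in each of the 9 libraries; color marks the group, marker shape the replicate, black lines the mean of 3 libraries, and open markers a count of 0 drawn at 0.01. Igfbp3 lay between 5310 and 8667 CPM in astrocytes and between 743 and 883 CPM in SB28 cells, and in the third astrocyte library Igf1, Igf2, Igfbp2, Igfbp5 and Igfbp7 stood above the other two.

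Igfbp3, the main carrier of IGFs in the circulation, was the most abundant of the 10 transcripts. It reached 8667, 8100 and 5310 CPM in the astrocyte libraries, which ranked it 5, 4 and 6 among all genes and gave it 0.867%, 0.810% and 0.531% of all counts. mKate2- cells held 743, 883 and 850 CPM, and mKate2+ cells held 829, 821 and 743 CPM. Every astrocyte library lay above every SB28 library, and the SB28 groups overlapped. The log2 fold change was -3.15 ± 0.23 (SE, adjusted p = 2.75e-05, edgeR) in mKate2- cells and -3.13 ± 0.23 (adjusted p = 3.89e-05) in mKate2+ cells, so that SB28 cells kept 11.2% and 10.8% of the astrocyte mean. Igfbp3 spans chr11:7206086-7213923 (GRCm38) and lies 3539 bases from Igfbp1, with no gene between them. Igfbp1, the liver-expressed member of the family, had no count in any library, so the neighbors stood at opposite ends of the range.

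Igfbp2, a binding protein abundant in the developing nervous system, was measured at 859, 447 and 2567 CPM in astrocytes. It fell to 7.21, 5.32 and 12.9 CPM in mKate2- cells and 7.13, 4.91 and 12.7 CPM in mKate2+ cells. The lowest astrocyte library was therefore far above the highest SB28 library. The log2 fold changes were -7.23 ± 0.78 (adjusted p = 0.000161, edgeR) and -7.22 ± 0.80 (adjusted p = 0.000229), and SB28 cells held 0.656% and 0.640% of the astrocyte mean. Without the third astrocyte library they were -6.28 in both comparisons, still called, so the percentages depend on that library. The 12 astrocyte markers spread widely on the same scale. In mKate2- and mKate2+ cells Slc1a2 stood at 0.624% and 0.393% of its astrocyte mean, Slc1a3 at 0.757% and 0.428%, Aqp4 at 0.838% and 0.908%, Apoe at 1.08% and 0.932%, Aldoc at 1.58% and 1.34%, Gfap at 1.84% and 1.41%, Fgfr3 at 3.61% and 2.45% and Aldh1l1 at 5.15% and 5.03%. The other markers had higher percentages, S100b at 28.2% and 24.3%, Glul at 30.3% and 32.7%, Sox9 at 52.6% and 49.1% and the connexin gene Gja1 at 133% and 139%. Several of these percentages also depend on the third astrocyte library. Without it Igfbp2 stood at 1.30% and 1.26%, Slc1a2 at 1.92% and 1.21%, Gfap at 3.17% and 2.43% and Aqp4 at 3.24% and 3.51%. Aldoc stood at 5.33% and 4.51%, Fgfr3 at 10.6% and 7.18% and S100b at 77.4% and 66.6%. Slc1a3, at 0.845% and 0.477%, and Apoe, at 1.09% and 0.942%, moved little. Whether astrocyte RNA carried through the sort contributed to the low Igfbp2 and Igfbp5 values was not tested.

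Igfbp5, a binding protein that also associates with extracellular matrix, was at 279, 301 and 4533 CPM in astrocytes. SB28 cells held 10.1, 6.55 and 7.24 CPM when mKate2- and 8.10, 2.27 and 14.1 CPM when mKate2+. All SB28 libraries were below all astrocyte libraries, but the astrocyte mean of 1704 ± 2450 CPM (SD, n = 3) rested largely on the third library. The log2 fold changes were -7.71 ± 1.31 (adjusted p = 0.00142, edgeR) and -7.64 ± 1.46 (adjusted p = 0.00297). Without that library they were -5.19 and -5.13, still called. Igfbp2 and Igfbp5 lie at chr1:72824503-72852474 and chr1:72857932-72874884, separated by 5457 bases that hold no other gene. Both were lower in SB28 cells and both were highest in the third astrocyte library, as were Igf1 and Igfbp7 on other chromosomes.

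Igfbp7, a secreted protein also known from blood vessels, was also lower in SB28 cells. Astrocytes held 14.6, 16.9 and 63.7 CPM, mKate2- cells 1.10, 1.17 and 2.04 CPM and mKate2+ cells 1.91, 0.509 and 1.79 CPM, so astrocytes and SB28 cells did not overlap. The log2 fold change was -4.44 in both comparisons, with SE 0.65 (adjusted p = 0.000656, edgeR) in mKate2- and 0.73 (adjusted p = 0.0015) in mKate2+ cells. Without the third astrocyte library the values were -3.45 and -3.46, still called. The exons of Igfbp7 overlap those of Polr2b, an RNA polymerase II subunit gene on the opposite strand that held 90.9 to 125 CPM in all 9 libraries. The strand setting of the counting is not given in the sources used here, so part of the low SB28 values could not be assigned to either gene with certainty.

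Igfbp4, a binding protein cleaved by the protease PAPP-A to release IGF, was the only one of the 10 called higher in SB28 cells. Astrocytes held 64.5, 104 and 252 CPM. mKate2- cells held 274, 440 and 367 CPM and mKate2+ cells 331, 492 and 359 CPM. The groups did not overlap, although the third astrocyte library at 252 CPM came close to the lowest SB28 library at 274 CPM. The log2 fold changes were 1.39 ± 0.45 (adjusted p = 0.0277, edgeR) and 1.58 ± 0.47 (adjusted p = 0.0203), or 257% and 281% of the astrocyte mean. The call depended on single libraries. In mKate2- cells it was lost without astrocyte replicate 1 (log2 fold change 1.04), astrocyte replicate 2 (1.19), mKate2- replicate 2 (1.22) or mKate2- replicate 3 (1.38), with adjusted p of 0.0509, 0.0943, 0.0868 and 0.0664 in edgeR. In mKate2+ cells it was lost without astrocyte replicate 2 (1.39, adjusted p = 0.0741) or mKate2+ replicate 2 (1.36, adjusted p = 0.0634). Without astrocyte replicate 3 the difference was larger, at 2.11 and 2.29, and remained called.

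**Figure D2:**
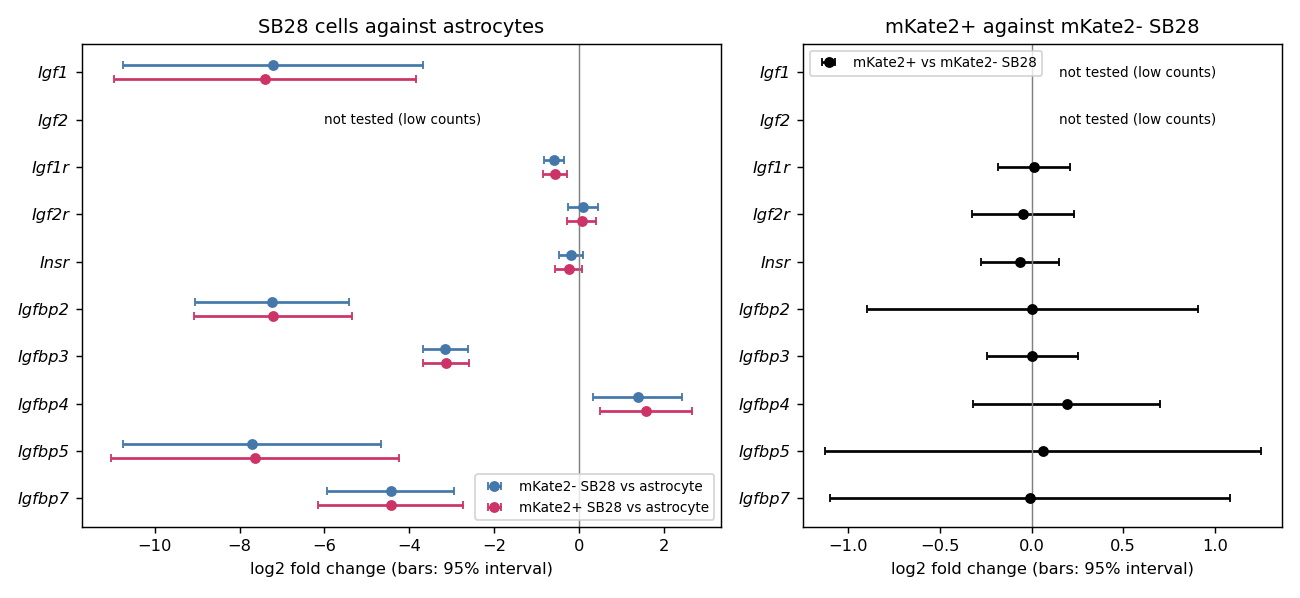
Log2 fold changes with 95% intervals (edgeR, 3 libraries a group) of SB28 cells against astrocytes on the left and of mKate2+ against mKate2- SB28 cells on the right, drawn on different scales. On the left Igfbp4 lay above 0, and Igf1, Igf1r, Igfbp2, Igfbp3, Igfbp5 and Igfbp7 lay below it in both comparisons, whereas every interval on the right included 0.

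The composition of the binding protein transcripts differed as well. Levels between genes were compared as CPM per kb of exonic length. Igfbp3 made up 71.8% ± 25.1 (SD, n = 3) of the 5 binding protein transcripts in astrocytes, 75.0% ± 2.36 in mKate2- cells and 72.7% ± 3.48 in mKate2+ cells, so its share did not separate the groups. Igfbp4 made up 0.898% ± 0.509 in astrocytes and 23.0% ± 2.74 and 25.3% ± 3.99 in mKate2- and mKate2+ cells. The highest astrocyte share of Igfbp4, 1.45%, was below the lowest SB28 share, 20.3%. Igfbp2 went the other way, from 19.2% ± 14.2 in astrocytes to 1.31% ± 0.584 and 1.30% ± 0.713. Its share was 14.1%, 8.29% and 35.2% in the astrocyte libraries, so that mean depends on the third. The summed level of the 5 went from 10526 ± 1960 CPM in astrocytes to 1204 ± 153 and 1210 ± 98.8 CPM, so the larger Igfbp4 share in SB28 cells came with a smaller total.

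**Figure D3:**
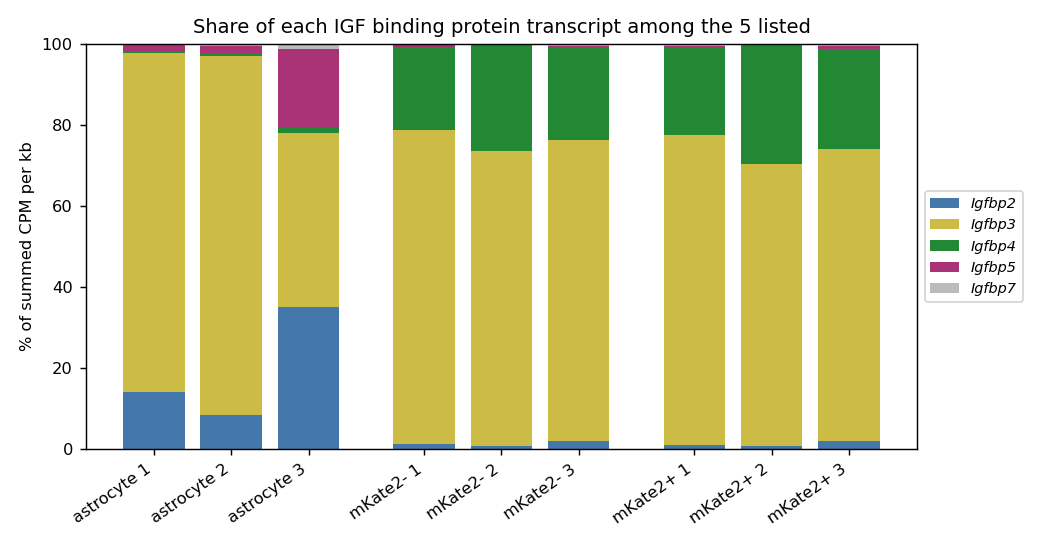
Share of each binding protein transcript (percent of their summed CPM per kb of exonic length) in each of the 9 libraries. Igfbp3 was the largest share in all libraries, Igfbp4 was between 20.3% and 29.5% in the SB28 libraries and at most 1.45% in astrocytes, and the third astrocyte library had the largest shares of Igfbp2 (35.2%) and Igfbp5 (19.1%).

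Transcripts of the ligands were scarce. Igf1 was counted 17, 52 and 501 times in the astrocyte libraries, or 0.695, 1.59 and 14.3 CPM. SB28 libraries held 2, 1 and 0 counts when mKate2- and 2, 0 and 1 when mKate2+. Astrocytes thus held more in every library, though 1 of them supplied most of the counts. The pooled level in mKate2- cells was 0.0323 CPM (exact Poisson 95% interval 0.00666 to 0.0944), and the pooled astrocyte level was 191 times higher (65.1 to 930), or 37.4 times (12.3 to 186) without the third astrocyte library. In mKate2+ cells the ratios were 225 (76.8 to 1096) and 44.1 (14.5 to 219). These intervals cover counting error only. In edgeR the adjusted p was 0.00412 and 0.00432. However, the gene passed the filter on low counts only through the second astrocyte library and the third, and without either of them it was not tested.

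Igf2, an imprinted fetal growth factor, had 2, 8 and 164 counts in astrocytes, 1, 3 and 9 in mKate2- cells and 6, 1 and 28 in mKate2+ cells. Only the third astrocyte library, at 4.67 CPM, exceeded 1 CPM, so the gene was not tested, and the first 2 astrocyte libraries lay within the SB28 range. The pooled astrocyte level was 13.5 times that of mKate2- cells (7.68 to 25.8, counting error only) and, without the third library, 1.25 times (0.491 to 3.09). In mKate2+ cells it was 5.90 times (4.08 to 8.74) with that library and 0.547 times (0.242 to 1.13) without it. The direction therefore rested on 1 library. The exons of Igf2 also overlap those of Igf2os on the opposite strand, which had at most 4 counts in any library, and those of Gm49394 on the same strand, so its counts are uncertain. The insulin genes Ins1 and Ins2 had no count in any library.

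The receptors were present at similar levels in both cell types. Igf1r was at 217, 199 and 232 CPM in astrocytes, 143, 146 and 140 CPM in mKate2- cells and 150, 119 and 149 CPM in mKate2+ cells, with no overlap between astrocytes and SB28 cells. Its log2 fold changes of -0.59 ± 0.10 (adjusted p = 0.00153, edgeR) and -0.56 ± 0.13 (adjusted p = 0.00608) passed on p but were too small to be called. Of all genes tested, 63.1% and 60.1% passed on p alone. When a trend of counts with gene length was removed from each library, the Igf1r values were -0.40 (adjusted p = 0.0218) and -0.24 (adjusted p = 0.129), so its difference depended on that choice. At 16791 bases of exons it was the longest of the 10 genes.

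Igf2r stood at 389, 423 and 522 CPM in astrocytes, 402, 533 and 478 CPM in mKate2- cells and 480, 378 and 466 CPM in mKate2+ cells. The 3 groups overlapped, with log2 fold changes of 0.10 (95% interval -0.25 to 0.45) and 0.06 ± 0.15 (SE). Insr was at 122, 156 and 160 CPM in astrocytes, 132, 131 and 118 CPM in mKate2- cells and 132, 109 and 112 CPM in mKate2+ cells. These ranges overlapped too, and the log2 fold changes were -0.18 ± 0.12 (adjusted p = 0.219, edgeR) and -0.24 ± 0.14 (adjusted p = 0.166). Neither receptor passed the test.

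Ordered by CPM per kb, astrocytes held Igfbp3 at 2351 ± 574 (SD, n = 3), then Igfbp2 at 699 ± 609 and Igfbp5 at 284 ± 408. Igf2r, Igfbp4 and Igfbp7 followed at 47.8, 31.7 and 26.3, Igf1r and Insr at 12.9 and 10.6, and Igf1 and Igf2 at 0.557 and 0.291. Igfbp3 lay above Igfbp2 in every library, as Igf1r did above the highest Insr value and Insr above Igf1, whereas the remaining neighbors in the order overlapped. In mKate2- cells Igfbp3 was again first at 264 ± 23.4, followed by Igfbp4 at 81.6 ± 18.8, Igf2r at 50.6 ± 7.06, Insr at 9.24 and Igf1r at 8.50. Igfbp2 at 4.58, Igfbp5 at 1.32 and Igfbp7 at 1.19 came next, and Igf2 and Igf1 were last. mKate2+ cells had the same order. In both SB28 groups the neighbors that overlapped were Insr and Igf1r, Igfbp5 and Igfbp7, and the ligands. Compared with astrocytes, Igfbp4 moved from place 5 to place 2 and Igfbp2 from place 2 to place 6.

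The third astrocyte library differed from the first 2 in many of these genes. It held 12.5 times the mean of the others for Igf1, 28.6 for Igf2, 15.6 for Igfbp5, 4.04 for Igfbp7, 3.93 for Igfbp2 and 3.00 for Igfbp4, but 0.633 for Igfbp3 and between 1.12 and 1.29 for the receptors. A threshold of 3-fold was set after these values were seen. Of the 9 IGF genes above 1 CPM in at least 2 astrocyte libraries 5 reached it, Igfbp4 only just. So did 2.70% of the 13004 genes that passed the same filter. Igf1, below 1 CPM in the first library, passed that filter only through the second library and the third. Its place among the 5 was therefore set by the library in which it was high. Astrocyte markers were uneven in the same library. Aqp4, the water channel of astrocyte endfeet, was 9.59 times higher there, Aldoc 8.09, the glutamate transporter Slc1a2 7.22 and Gfap 3.17, while Slc1a3 was at 1.35 and Sox9 at 0.98 times the others.

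Markers of other cell types were measured beside these values. All 12 astrocyte markers were detected in each astrocyte library, but Gfap, the intermediate filament of astrocytes, was at only 8.83, 3.42 and 19.4 CPM. The 8 endothelial markers summed to 7.61, 14.6 and 200 CPM, of which the receptor Flt1 was 192 CPM in the third library, with Cldn5 and Emcn at 0 in all 3. Flt1 was also held by SB28 libraries, at 47.5 to 60.2 CPM, above the first 2 astrocyte libraries, and nearly all of the rise of the sum was that of Flt1. Cdh5 was at 0.654, 0.367 and 5.64 CPM and Pecam1 at 1.02, 0.703 and 0.455 CPM. The 6 mural markers summed to 141, 155 and 242 CPM, led by Notch3. The third library held 52.6 times the mean of the first 2 for Abcc9, 52.1 for Kcnj8 and 6.60 for Rgs5. These stood at only 1.88, 0.797 and 2.73 CPM there. Anpep was at 3.74 and Notch3 at 1.95 times that mean, but Pdgfrb at 0.982. The 8 choroid plexus and ependymal markers summed to 13.6, 42.3 and 89.1 CPM, with Foxj1, a regulator of ciliated cells, at 75.9 CPM in the third library and Otx2 highest in the second, at 33.0 CPM. Ttr, Rarres2 and Tmem212 were lowest in the third library and Kl, Folr1 and Ccdc153, highest there, stayed below 1 CPM, so the rise of this sum was mainly that of Foxj1. Microglial markers did not rise there. The 12 summed to 56.6, 47.5 and 38.1 CPM, mostly Tmem119, which SB28 libraries also held at 47.3 to 61.1 CPM, and Cx3cr1 was at 0 in the second library and the third. The 8 meningeal fibroblast markers, led by Col1a2, summed to 1411, 1514 and 1150 CPM. The third library held 0.465 times the mean of the first 2 for Col1a1 and 0.786 for Col1a2. It held 2.77 times that mean for Col3a1, 5.50 for Dcn, 8.35 for Lum and 2.06 for Foxc1, with Dcn at 2.45 and Lum at 0.512 CPM. Slc6a13 and Slc22a6 were at or near 0. SB28 cells also held Col1a1, Col1a2, Col3a1 and Foxc1, but Dcn and Lum only at up to 0.117 and 0.0509 CPM. The 7 oligodendrocyte lineage markers, led by Olig1, summed to 810, 402 and 462 CPM, with Sox10 at 0 in the first library and the third, and the 7 neuroblast and neuron markers, led by Dlx2 or Dlx1, to 97.8, 84.1 and 54.0 CPM. The part of these cell types in the IGF gene levels was not tested.

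**Figure D4:**
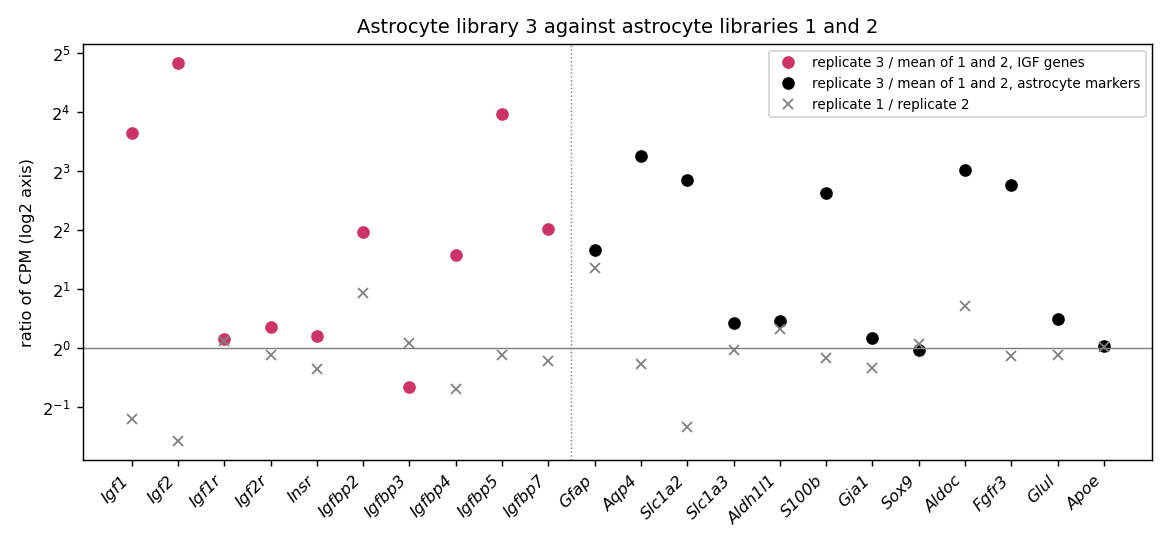
Ratio of CPM in the third astrocyte library to the mean of the first 2 (circles, log2 axis) for the IGF genes on the left and the 12 astrocyte markers on the right; crosses give the ratio of the first library to the second. Igf2 (28.6), Igfbp5 (15.6) and Igf1 (12.5) had the highest circles, and Aqp4 was the highest marker at 9.59.

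Whether uptake of astrocyte mitochondria went with a change in these genes was asked by comparing mKate2+ with mKate2- SB28 cells, and none was called. Here a call required more than a 1.5-fold difference, p under 0.05 before adjustment and a mean of over 50 normalized counts. Of the 10 genes 8 were tested and 0 called, against 0.194% higher and 0.169% lower among the 11854 genes tested, a background at which few calls would be seen in any list of this size. At an unadjusted p under 0.05 alone it was 0 of 8 against 2.03% of all genes. No gene in the table passed an adjusted p of 0.05 in edgeR, and the smallest adjusted p among the 8 was 0.931.

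The intervals of the difference come from a fit that takes the 3 libraries of a group as independent, without the replicate number. For Igfbp3 the log2 fold change was 0.0040 (95% interval -0.24 to 0.25), for Igf1r 0.01 (-0.19 to 0.21), for Igf2r -0.05 (-0.33 to 0.23) and for Insr -0.07 (-0.28 to 0.15). All of these intervals lay inside the 1.5-fold criterion. Igfbp4 was at 0.19 (-0.32 to 0.70) and Igfbp2 at 0.0045 (-0.90 to 0.91). With a replicate block in the fit these 2 intervals were -0.047 to 0.41 and -0.28 to 0.28, inside that criterion. The level of Igfbp2 followed the replicate number, replicate 3 being the highest and replicate 2 the lowest library in all 3 groups. Igfbp5, at 0.06 (-1.13 to 1.25), and Igfbp7, at -0.01 (-1.10 to 1.08), had intervals that reached past a 2-fold difference either way. mKate2+ replicate 2 had the lowest Igfbp5, Igfbp7, Igf1r, Igf2r and Insr and the highest Igfbp4 of the SB28 libraries. It also differed most from its replicates over all genes, its chi-square over degrees of freedom being 134 and 121 where that of the other mKate2+ pair was 15.8. Without it 0 of the 10 genes were called, and the Igfbp4 difference was -0.06.

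Other genes of the pathway were taken from 5 lists of 48 genes in all. Of these 41 were tested against astrocytes, with 6 called higher and 11 lower in each comparison, against the shares of all genes given above. Without the third astrocyte library the counts were 5 and 8 in mKate2- and 6 and 9 in mKate2+ cells. Igfbpl1, Pappa, Pappa2, Stc1 and H19 were at or below 1 CPM in every mKate2- library, and the first 4 of them in every mKate2+ library. H19 was above 1 CPM in only 1 mKate2+ library, at 1.04 CPM. All of these genes therefore passed the filter in both comparisons through the group in which they were high. Between mKate2+ and mKate2- cells 36 were tested and 0 called, where 0.194% of all genes were called higher and 0.169% lower, so almost none would be called in a list of this size.

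Among RNA-binding partners and imprinted neighbors, 3 of 6 genes were called higher and 1 lower, where 11.5% and 22.4% of all genes tested were called in mKate2- cells and 12.2% and 22.8% in mKate2+ cells. The IGF2 mRNA binding proteins were the ones that rose. Igf2bp1 went from 9.73, 11.9 and 7.51 CPM in astrocytes to 62.6, 61.7 and 69.5 CPM in mKate2- cells (log2 fold change 2.75 ± 0.19, adjusted p = 2.02e-05, edgeR). Igf2bp2 and Igf2bp3 rose by 2.07 ± 0.15 and 2.62 ± 0.14 on the log2 scale, and in mKate2+ cells the 3 values were 2.73, 1.99 and 2.67. Their namesake target Igf2 was at most 0.819 CPM in these cells. H19, the imprinted noncoding RNA next to Igf2, named after its values were seen, was lower, with log2 fold changes of -4.33 and -3.95. It passed the filter through the astrocyte libraries in both comparisons, so its call was set by the group in which it was high. H19 was even across the astrocyte libraries (9.73, 9.57 and 11.0 CPM), whereas Igf2 was not.

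Of 7 proteases of binding proteins and their inhibitors, 6 were tested, 1 was called higher and 4 lower, against the same shares of all genes (11.5% and 22.4% in mKate2-, 12.2% and 22.8% in mKate2+ cells). Of the 4 lower, all but Htra1 had passed the filter through astrocytes. Stc2, an inhibitor of pappalysins, rose by 1.57 ± 0.21 (adjusted p = 0.000415, edgeR) and 1.69 ± 0.22 (adjusted p = 0.000494) on the log2 scale. Htra1, a secreted serine protease, and Pappa2, a pappalysin, were lower, with log2 fold changes of -1.17 and -1.03 for Htra1 and -3.04 and -2.45 for Pappa2. Pappa, which encodes PAPP-A, and Stc1, both named after their values were seen, were lower as well but resembled Igf1 within the astrocytes. Pappa was at 0.204, 1.16 and 12.5 CPM and Stc1 at 1.88, 2.57 and 84.2 CPM, highest in the third library. Without either the second astrocyte library or the third, Pappa was above 1 CPM in 1 astrocyte library and would not have been tested.

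Of 24 receptor adaptors and genes of the PI3K arm, 23 were tested, 2 were called higher and 5 lower, or shares near those of all genes (11.5% and 22.4% in mKate2-, 12.2% and 22.8% in mKate2+ cells), so the count says nothing particular about this list. Grb10, an adaptor that restrains insulin and IGF1 receptor signaling, went from 122, 61.8 and 86.2 CPM in astrocytes to 1.03, 0.362 and 1.61 CPM in mKate2- cells and 2.83, 0.484 and 0.936 CPM in mKate2+ cells. Its log2 fold changes were -6.51 ± 0.51 (adjusted p = 3.67e-05, edgeR) and -5.94 ± 0.63 (adjusted p = 0.000186), but only 1 mKate2+ library was above 1 CPM, so in that comparison the gene passed the filter through the astrocyte libraries. The related adaptor Grb14 fell by 2.51 and 2.65, and the transcription factor Foxo1, which is inhibited by AKT, by 1.16 and 1.15 on the log2 scale. The insulin receptor substrates, named after their values were seen, moved in opposite directions, Irs1 by 1.11 and 1.03 and Irs2 by -1.15 and -1.17.

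Of the 7 further family members only 2 passed the filter. Igfbpl1 was called lower from 0.900, 1.83 and 3.73 CPM in astrocytes, with 3 counts in all mKate2- and 1 count in all mKate2+ libraries. It passed the filter through the second astrocyte library and the third, and would not have been tested without either of them. Igfbp6 was not called (-0.14 and 0.20). Igfbp1, Ins1, Ins2 and Insrr, the insulin receptor-related receptor, had no count in any library. None of the 4 genes of IGF degradation and binding protein uptake was called, a count too small to be read against the shares of all genes. Ide, Lrp1 and Nedd4, named after their values were seen, passed on adjusted p in both comparisons but not on fold change. Their log2 fold changes were 0.82 and 0.75, -0.85 and -0.81, and -0.38 and -0.45. Tmem219 passed in neither, and 63.1% and 60.1% of all genes tested passed on p alone.

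The genes closest in pattern were found by the Euclidean distance between mean-centered log2 CPM over the 9 libraries, among 13449 genes. For Igfbp4 these were H2-T22 (distance 0.469), Ank (0.681) and Gfra2 (0.701). For Igf1 they were Vat1l (0.842), Sorcs1 (1.10) and Aox3 (1.21). Igf1 had at most 2 counts in any SB28 library, so its distances are not comparable with those of Igfbp4. Points of 1 library share its depth and composition, and these distances are a description.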

How the data were processed

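RNA was sequenced in 9 libraries from 3 co-cultures, and the libraries were taken by their names, because the sort gates in the labels give CellTrace Violet to the tumor cells whereas the methods stain astrocytes. The 3 libraries of a group were treated as replicates. Per the labels, the authors trimmed reads with Trimmomatic 0.36, mapped them to GRCm38 with STAR 2.5.2b and counted them per gene with featureCounts (Subread 1.5.2). The deposited values are raw counts of reads per gene, without normalization. The annotation release and strand setting are not given in the sources used here. Whether counted reads overlapping 2 genes were dropped is not known, which bears on Igfbp7 and Igf2.

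Here, symbols, positions and exonic lengths came from GENCODE M21, which names 49056 of 49315 IDs. CPM used total counts, and intervals of pooled counts were exact at 95%. Comparisons used R 4.3.3 and edgeR 4.0.16 with TMM normalization on the 6 libraries compared and genes above 1 CPM in at least 2 of them, without a replicate block. SE is the absolute log2 fold change over the square root of F. Fits were tested on simulated data with 200 changed genes. Alternatives were DESeq2 1.42.0, upper-quartile normalization, no filter, all 9 libraries in 1 fit, a replicate block, removal of a length trend, TMM-scaled CPM and leaving out each replicate. Promoters were read from RefSeq, which matched 9 of the 10 genes. All 10 genes were named, with up to 3 called genes of each pathway list by smallest adjusted p, listed genes with no count, and nearest genes of Igfbp4, Igfbp5 and Igf1, of which those of Igfbp5 are not reported here. The genes and lists were chosen with earlier results of these data known.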

Additional observations from a re-analysis of the deposited data

How the results depend on the processing

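Against astrocytes, the 5 genes called lower and the 1 called higher kept their direction under every alternative that gave a value, and the counts of all genes called stayed within 1.5 times. Leaving out 1 replicate moved the number of the 10 genes called higher between 0 and 1 in both comparisons, through Igfbp4. In both comparisons the number called lower went from 5 to 4 without astrocyte replicate 2 or 3, each of which left Igf1 untested. DESeq2 gave no adjusted p for Igfbp5, and without a filter Igf2 was also called lower in mKate2- cells. Igf2r in mKate2+ cells turned to -0.036 under upper-quartile normalization and ranged from -0.026 to 0.17 with 1 replicate left out, and Insr turned to 0.046 with the length trend removed.

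Between mKate2+ and mKate2- cells the number of all genes called higher was 23, but 62 in DESeq2, 224 without a filter, 46 in the fit to all 9 libraries and 13 both with the replicate block and with the length trend removed. The number called lower was 20, but 35 without a filter, 13 in the fit to all 9 libraries and 33 with the replicate block. With 1 replicate left out these ran from 6 to 310 and from 16 to 70, the highest without mKate2+ replicate 1, and pathway genes called higher from 0 to 1. Of the 10 genes, Igf2r turned to 0.035 and Insr to 0.064 with the length trend removed, Igfbp2 to -0.0010 and -0.058 and Igfbp3 to -0.0048 and -0.031 under upper-quartile normalization and length trend removal, and Igfbp5 to -0.20 with the replicate block. Leave-one-out log2 fold changes ranged from -0.036 to 0.072 for Igf1r, -0.14 to 0.055 for Igf2r, -0.44 to 0.43 for Igfbp2, -0.067 to 0.059 for Igfbp3, -0.060 to 0.36 for Igfbp4, -0.59 to 0.49 for Igfbp5 and -0.29 to 0.37 for Igfbp7. None of these values was called. The cause was not tested.

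The labels give the groups the same replicate numbers, and the paper sorted all 3 groups from 3 co-cultures, so libraries of the same number may share a co-culture. Deviations of same-numbered libraries correlated at -0.030, 0.11 and 0.28 between the SB28 groups. They correlated at 0.055, 0.046 and 0.024 between mKate2- cells and astrocytes and at -0.15, 0.065 and 0.25 between mKate2+ cells and astrocytes. For unlike-numbered libraries the correlations ran from -0.21 to 0.094, from -0.095 to 0.054 and from -0.27 to 0.25, in the same order. These values do not settle whether the numbers pair the samples. The main fit left the numbers out, and the block changed no call of the 10 genes. With the replicate block the 95% interval of the difference between the SB28 groups was -0.28 to 0.28 for Igfbp2 and -0.047 to 0.41 for Igfbp4. Both lay inside the 1.5-fold criterion, whereas the intervals without the block did not. Precision is limited by 3 libraries a group and, for Igf1, Igf2 and Igfbp7 in SB28 cells, by counts: 3 counts correspond to 0.0764 to 0.110 CPM in an SB28 library.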
